A study of Mus musculus with 2 samples.

Results

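The proteasome genes of the mouse were set against IRF4 binding in CH12.LX, an immortalized B-cell lymphoma line of the strain B10.H-2aH-4bp/Wts. Binding was measured by chromatin immunoprecipitation with an antibody to IRF4 followed by sequencing (ChIP-seq). The samples form 1 group of 2 biological replicates with no treatment. The labels name a possible control experiment, which was not used here, and they do not say whether the replicates came from separate cultures. Members were protein-coding RefSeq genes (GRCm38, autosomes 1 to 19 and X) whose symbol is Psma, Psmb, Psmc, Psmd, Psme, Psmf or Psmg followed by a digit, without Psmb8 and Psmb9. The rule found 49 genes among 20923 protein-coding genes with a known start. It takes 3 genes by their symbol alone: Psmc3ip, a partner in homologous pairing during meiotic recombination, Psme3ip1, a protein that binds the activator Psme3, and Psme2b. The other 46 encode proteasome subunits, activators, an inhibitor or assembly chaperones.

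The proteasome degrades proteins tagged with ubiquitin. Its 20S core is a stack of alpha and beta rings, with the catalytic sites on beta subunits, and the 19S cap unfolds the substrate with a ring of ATPases and receives and trims the ubiquitin chain with non-ATPase subunits. Interferon replaces the catalytic beta subunits with immunoproteasome forms, of which Psmb10 is 1, and induces the activator PA28 made by Psme1 and Psme2. IRF4 is a lymphoid transcription factor with a known role in plasma cells. It binds DNA weakly alone, and it is known to bind composite elements with ETS factors such as PU.1 (the EICE), composite elements with AP-1 factors, and the interferon-stimulated response element (ISRE).

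The sequences that carried the IRF4 summits show how varied these sites were. The lines below hold the first 8 of the members among the 12 strongest at their start with a summit inside the RefSeq promoter window, which runs from 250 bases before to 50 bases after a start. They are from RefSeq on GRCm38.p6, in the direction of the gene, and centred on the summit where the window allows, with at most 30 bases after the start. Capitals mark matches to any motif searched. The summit is base 76 of each line, and base 59 for Psmb3. For Psmc3ip the line is at its second summit, 7 bp from the start with a signal of 61.7, and not at its strongest, which lay outside the window. Psmb4, next in order, also had a summit in its window, which held none of the motifs, and is not printed.
Psmc3ip: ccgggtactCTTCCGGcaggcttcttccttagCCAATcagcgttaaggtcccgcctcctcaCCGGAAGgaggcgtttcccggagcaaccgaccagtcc
Psmb6: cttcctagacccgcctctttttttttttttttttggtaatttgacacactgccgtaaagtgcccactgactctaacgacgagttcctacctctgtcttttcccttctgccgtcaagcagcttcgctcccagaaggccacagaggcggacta
Psmd2: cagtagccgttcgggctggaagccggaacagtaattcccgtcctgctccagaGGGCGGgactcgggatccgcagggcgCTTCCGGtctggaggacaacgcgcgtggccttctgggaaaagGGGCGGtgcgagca
Psme1: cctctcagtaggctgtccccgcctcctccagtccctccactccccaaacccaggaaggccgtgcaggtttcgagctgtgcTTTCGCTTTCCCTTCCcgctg
Psmg1: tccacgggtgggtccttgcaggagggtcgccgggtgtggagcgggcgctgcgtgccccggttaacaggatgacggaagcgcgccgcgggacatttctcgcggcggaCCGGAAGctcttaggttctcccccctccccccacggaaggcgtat
Psmd11: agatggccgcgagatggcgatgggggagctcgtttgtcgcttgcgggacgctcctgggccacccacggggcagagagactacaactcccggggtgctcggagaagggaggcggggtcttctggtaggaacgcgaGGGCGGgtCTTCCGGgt
Psmg3: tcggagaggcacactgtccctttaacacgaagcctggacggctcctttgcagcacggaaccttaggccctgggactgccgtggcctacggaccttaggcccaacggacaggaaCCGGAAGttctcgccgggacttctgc
Psmb3: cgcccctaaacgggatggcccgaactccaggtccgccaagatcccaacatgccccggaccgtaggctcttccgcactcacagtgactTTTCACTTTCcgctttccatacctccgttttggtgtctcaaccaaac
An ETS core stood in capitals in 5 of these 8 stretches: Psmc3ip, Psmd2, Psmg1, Psmd11 and Psmg3. Psme1 held an ISRE and an EICE that overlapped, and Psmb3 held an ISRE. Psmb6, which had the strongest summit at the start of any subunit gene, had none of the motifs searched within its stretch. The lines belong to chr11:101095406-101095503 (minus strand, Psmc3ip), chr11:70525190-70525340 (plus, Psmb6), chr16:20651548-20651681 (plus, Psmd2), chr14:55578423-55578523 (plus, Psme1), chr16:95990985-95991135 (minus, Psmg1), chr11:80428462-80428612 (plus, Psmd11), chr5:139826865-139827003 (minus, Psmg3) and chr11:97703184-97703317 (plus, Psmb3).

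Some of the strongest summits lay outside these windows, and their sequence was read from the mm9 genome at the summit of the separate mm9 peak list. Capitals mark matches as above, and additionally a core of the CTCF motif, which was searched after the Psmd1 sequence had been seen. Stretches that touch a UTR in GENCODE vM1 are given as 29 bases and the others as 121, all in the direction of the gene with the summit in the middle. Each is the strongest mm9 summit of its gene, at about the same distance from the start as the strongest optimal summit, and signals of the lists are not compared.
Psmd1: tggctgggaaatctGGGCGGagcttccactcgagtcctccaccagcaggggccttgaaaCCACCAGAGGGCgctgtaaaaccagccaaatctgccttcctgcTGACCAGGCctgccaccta
Psmc3ip: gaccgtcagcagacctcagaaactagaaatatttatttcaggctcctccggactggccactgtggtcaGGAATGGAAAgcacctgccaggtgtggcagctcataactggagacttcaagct
Psma6: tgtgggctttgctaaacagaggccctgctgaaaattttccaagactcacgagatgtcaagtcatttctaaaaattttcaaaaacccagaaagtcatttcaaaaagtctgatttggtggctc
Psmc2: gctaCTTCCGGtggGGAAGAGAAAgggaa
Psmb10: tGAAAGCGAAAgtaggaagcgtccggaaa
At Psmd1, chr1:87956145-87956265 on the plus strand and 4757 bp upstream of the GENCODE start, the CTCF core was centred 5 bases from the summit, in sequence that is intergenic in the annotation. At Psmc3ip, chr11:100957236-100957356 on the minus strand and also intergenic, an EICE was centred 13 bases from the summit. At Psma6, chr12:56494009-56494129 on the plus strand in an intron of the gene, no motif searched was found. At Psmc2, chr5:21292537-21292565 on the plus strand in annotated coding sequence, an EICE and an ETS core were centred 5 and 7 bases from the summit. At Psmb10, chr8:108462001-108462029 on the minus strand in an annotated UTR of the gene, an ISRE was centred 8 bases from the summit. A match describes the letters and is not evidence of a bound site.

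IRF4 summits lay near most proteasome genes, and mostly at the start itself. In the optimal list, the larger of the authors' 2 lists from their reproducibility step, with 44058 peaks, 39 of 49 members (79.6%) had a summit within 10 kb of the gene start, against 50.3% of all protein-coding genes. Within 1 kb the count was 33 of 49 members (67.3%), against 31.9% of all genes. In the stricter conservative list of 35879 peaks, 36 members (73.5%) had a summit within 10 kb, against 44.6% of all genes. Psma3 had a summit in the conservative list and not in the optimal one, and Psmc5, Psmd7, Psmd10 and Psmd12 had the reverse. Leaving out the 3 genes taken by symbol alone gave 37 of 46 (80.4%) within 10 kb and 31 of 46 (67.4%) within 1 kb. With 1 group and 2 replicates there is no test of these shares, and they are a description.

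The 66 member summits clustered around the start. Of these, 38 lay within 1 kb and 26 (39.4%) within 200 bp. Over all genes 21.9% lay within 200 bp, with a summit counted for each gene it was near. In lists compared below, the share was 35.2% for cytosolic and 37.2% for mitochondrial ribosomal protein genes. It was 35.7% for other genes that work with the proteasome. Upstream and downstream member summits numbered 36 and 30, and 28 member summits lay inside the member's own gene. The median distance of the strongest summit within 1 kb was 78 bp. Of the 39 members, 20 had 1 summit, 12 had 2, 6 had 3 and 1, Psmg4, had 4. No summit lay within 10 kb of 2 members.

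The summits at proteasome starts had moderate signal. Signal here is the value the authors' peak caller gave each peak in the pooled replicates, and its scale is not stated, so it only ranks peaks within 1 list. The strongest summit within 1 kb had a median signal of 50.9 over the 33 members and 41.7 over all genes with such a summit. A signal of 100 or more within 1 kb was found at 2 of the 33 members (6.06%) and at 6.04% of all genes with a summit there. Within 10 kb the medians were 61.1 for members and 49.2 for all genes.

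**Figure D1:**
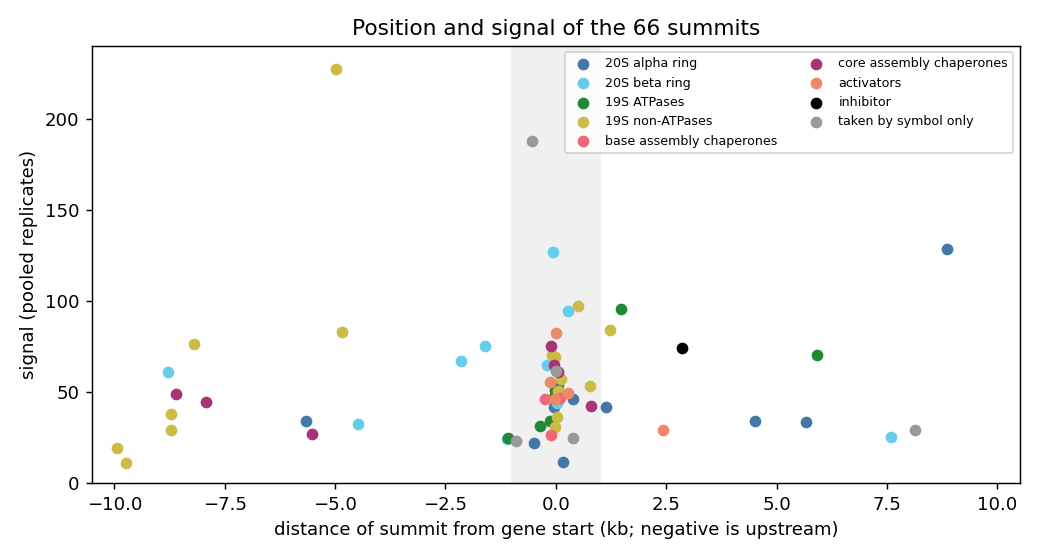
Each point is 1 of the 66 optimal summits within 10 kb of a proteasome gene start, by its distance from the start in kb (negative is upstream) and its signal in the pooled replicates, coloured by the role of the gene. The grey band marks 1 kb on either side of the start, where 38 summits lie; the summit of Psmd1, with a signal of 227.3, stands apart upstream.

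In the alpha ring, optimal summits were found near some genes and not others, and the shares rest on 8 genes. This outer ring of the core guards the entry of substrates. An optimal summit lay within 10 kb of 5 of its 8 genes (62.5%, against 50.3% of all genes). Within 1 kb the count was 4 (50%, against 31.9%). In the conservative list 6 of the 8 (75%) had a summit within 10 kb, against 44.6% of all genes. The signal at Psma2 was 11.9 (replicate 1), 37.3 (replicate 2) and 53.9 (pooled list), 43 bp downstream of its start. Psma4 had 14.7 in replicate 1 and 32.7 in replicate 2, and a pooled signal of 46.5 at 383 bp downstream. The start of AY074887 lay nearer to this Psma4 summit, at 210 bp. Both summits were higher in replicate 2.

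The other alpha genes with summits differed in where these lay. Psma5 had a pair of summits of near equal pooled signal, 41.9 at 1145 bp and 41.9 at 42 bp from its start, and the nearer of these was matched in replicate 2 alone. Psma1 had 34.3 at 5660 bp upstream and 22.2 at 492 bp upstream. Psma6 had no summit within 1 kb of its gene start, yet it had the strongest summit of the ring, with 48.6 in replicate 1, 79.5 in replicate 2 and 128.4 in the pooled list, 8849 bp downstream inside the gene. A second start of Psma6 in the RefSeq promoter table, 14603 bp further down, had a summit of 47.4 at 178 bp upstream. Psma3, Psma7 and the germ-cell subunit Psma8 had no optimal summit within 10 kb.

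In the beta ring, which holds the catalytic sites, the strongest summits belonged to a catalytic subunit and to the inducible one. A summit lay within 10 kb of 7 of 9 genes (77.8%) and within 1 kb of 5 (55.6%), against 50.3% and 31.9% of all genes. Psmb6, the subunit with caspase-like activity, had 48.6 in replicate 1, 77.2 in replicate 2 and 126.8 in the pooled list, at chr11:70525095-70525434 with its summit 59 bp upstream. Psmb10, the immunoproteasome form of the trypsin-like subunit, had 35.2 in replicate 1, 61.7 in replicate 2 and 94.4 pooled, at chr8:105937942-105938281, 280 bp downstream. The ISRE printed above for Psmb10 was at its mm9 summit, 277 bp downstream of the GENCODE start.

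Structural beta subunits followed. Psmb3 had 20.02 and 48.1 in replicates 1 and 2 and 64.9 pooled, at chr11:97703072-97703411, 192 bp upstream. Psmb4 had 17.2 and 42.4 in replicates 1 and 2 and 61.1 pooled, at chr3:94886741-94887080, 47 bp downstream. In both genes replicate 2 was well above replicate 1, with log2 ratios of 1.27 and 1.30. Psmb2 had 20.005 and 27.6 in replicates 1 and 2 and 44.1 pooled, 24 bp downstream.

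The remaining beta genes had optimal summits off the start or none. Psmb7, the constitutive trypsin-like subunit, had 67.2 pooled at 2156 bp upstream, with 22.9 and 42.7 in the replicates. Psmb1, a structural subunit, had 75.4 pooled at 1610 bp upstream, with 22.6 and 52.0 in the replicates, but this summit lay 2 bp from the start of Tbp, which encodes the TATA-binding protein. The conservative list had start summits at both genes, 39.6 at 28 bp for Psmb1 and 26.98 at 78 bp for Psmb7. Psmb5, the constitutive chymotrypsin-like subunit, and Psmb11, its thymus form, had no optimal summit within 10 kb.

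**Figure D2:**
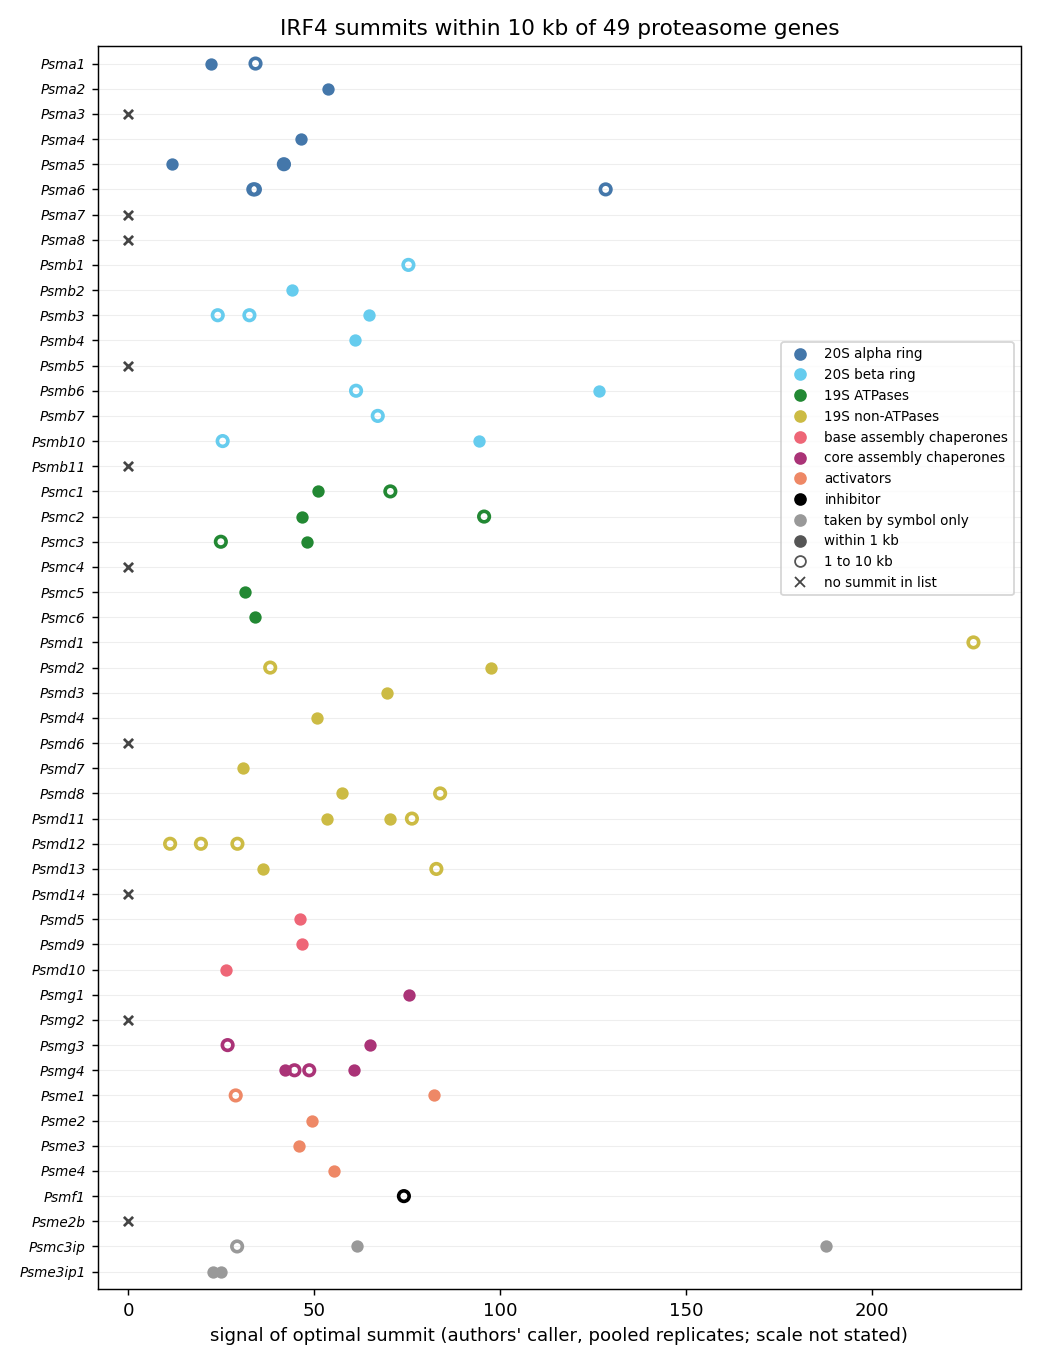
Signal of each optimal summit within 10 kb of the 49 genes, 1 row per gene, grouped and coloured by role (pooled replicates, scale of the authors' caller). Filled points lie within 1 kb of the start, open points between 1 and 10 kb, and a cross marks the 10 genes with no summit in the list; Psmd1 at 227.3 and Psmc3ip at 187.6 are farthest to the right.

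The 19S ATPases, which form the unfolding ring, had summits close to their starts with signals in a narrow range. Of the 6 genes, 5 (83.3%) had a summit within 1 kb, against 31.9% of all genes. The pooled signals were 51.0 (Psmc1), 46.7 (Psmc2), 48.2 (Psmc3), 31.4 (Psmc5) and 34.2 (Psmc6). The summits of Psmc1, Psmc2 and Psmc3 lay 13, 4 and 13 bp from the start. The Psmc5 summit was matched in replicate 2 alone, at 13.3, and lay nearer to the start of Ftsj3, a ribosomal RNA processing factor read in the opposite direction. Psmc4 had no optimal summit within 10 kb.

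A pair of ATPase genes had a stronger summit farther in. Psmc2 had 39.5 in replicate 1, 57.4 in replicate 2 and 95.8 pooled at 1479 bp downstream, which is 7 bp from a second RefSeq start of the gene. The adjoining ETS core and EICE printed above were at the mm9 summit 1450 bp downstream of the GENCODE start. Psmc1 had 21.8 in replicate 1, 48.9 in replicate 2 and 70.5 pooled at 5924 bp downstream, in the gene.

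The non-ATPase subunits of the 19S cap held the strongest summit of the whole set. Summits lay within 10 kb of 9 of 11 genes (81.8%) and within 1 kb of 7 (63.6%), against 50.3% and 31.9% of all genes. Psmd1, a large scaffold of the base, had 93.8 in replicate 1, 133.1 in replicate 2 and 227.3 pooled, at chr1:86059564-86059707, 4978 bp upstream in no RefSeq protein-coding gene. Only 939 of the 44058 optimal peaks were stronger. At the start of Psmd1 itself the optimal list had no summit, and the relaxed pooled list had 20.5 at 176 bp.

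Several other cap genes had strong summits at the start. Psmd2, the other large scaffold of the base, had 42.2 in replicate 1, 53.4 in replicate 2 and 97.5 pooled, at chr16:20651453-20651792; it lay 501 bp downstream of the RefSeq gene start and 29 bp upstream of the start in the promoter table. Psmd11 had 22.1 and 54.3 in replicates 1 and 2 and 70.6 pooled, at chr11:80428367-80428706, 78 bp upstream. Psmd3 had 18.6 and 55.0 in replicates 1 and 2 and 69.5 pooled, at chr11:98682370-98682709, 14 bp upstream. Psmd11 and Psmd3 are lid subunits, and at both the replicate 2 signal was far above that of replicate 1.

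Weaker start summits were found at other lid genes and at a ubiquitin receptor. Psmd8 had 57.5 pooled at 119 bp downstream and a stronger 83.9 at 1218 bp downstream. Psmd4, the ubiquitin receptor, had 23.2 and 23.6 in replicates 1 and 2 and 50.9 pooled at 39 bp. Psmd7, the partner of the deubiquitinase, had 6.16 and 25.2 in replicates 1 and 2 and 30.9 pooled at 17 bp. Psmd7 thus had the largest gap between replicates among the member summits, with a log2 ratio of 2.03, whereas Psmd4 was nearly equal.

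Psmd13 and Psmd12, both lid genes, had their strongest summits far from the start. That of Psmd13 was 82.9 at 4853 bp upstream inside Sirt3, a mitochondrial deacetylase gene. At its own start Psmd13 had 36.4 at 23 bp, matched in replicate 2 alone at 38.5. Psmd11 also had a distant summit, 76.3 at 8202 bp upstream. Psmd12 had only distant optimal summits, the strongest 29.4 at 8724 bp upstream and 84 bp from the start of Pitpnc1, a phosphatidylinositol transfer protein. The relaxed pooled list had 31.6 at 26 bp from its own start. Psmd6, a lid subunit, and Psmd14, the deubiquitinase of the lid, had no optimal summit within 10 kb.

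All 3 chaperones of base assembly had a summit within 1 kb of the start, against 31.9% of all genes. Psmd9 had 21.8 and 23.4 in replicates 1 and 2 and 46.7 pooled at 88 bp. Psmd5 had 16.1 and 30.2 in replicates 1 and 2 and 46.2 pooled at 240 bp. Psmd10, also known as gankyrin, had 9.17 and 14.9 in replicates 1 and 2 and 26.3 pooled at 110 bp. Psmd10 was the lowest of the 3 in both replicates.

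Chaperones of core assembly had higher signal. Psmg1 had 17.6 in replicate 1, 55.3 in replicate 2 and 75.6 pooled, at chr16:95990890-95991229, 100 bp upstream. Psmg3 had 21.7 in replicate 1, 43.4 in replicate 2 and 65.0 pooled, at chr5:139826758-139827097, 34 bp upstream. Psmg4 had 15.9 in replicate 1, 48.8 in replicate 2 and 60.8 pooled, at chr13:34162852-34163191, 58 bp downstream. At these 3 genes replicate 2 was the higher, with log2 ratios over replicate 1 of 1.65, 1.00 and 1.62 in the order named. Psmg2, which pairs with Psmg1, had no optimal summit within 10 kb.

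All 4 activator genes had a summit within 1 kb, against 31.9% of all genes. Psme1, the alpha subunit of PA28, had 40.0 in replicate 1, 43.0 in replicate 2 and 82.4 pooled, at chr14:55578328-55578667, 4 bp downstream. Psme2, the beta subunit, had 13.3 and 37.7 in replicates 1 and 2 and 49.5 pooled at 269 bp downstream. Psme3, the nuclear PA28 gamma, had 18.8 and 28.4 in replicates 1 and 2 and 46.0 pooled at 18 bp upstream. Psme1 stood highest, and its replicates were close.

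Psme4, the activator PA200, had 29.4 in replicate 1, 23.6 in replicate 2 and 55.3 pooled at 138 bp upstream, and so was higher in replicate 1. Psmf1, the inhibitor PI31, had 28.6 in replicate 1, 43.2 in replicate 2 and 74.2 pooled. It lay 2865 bp downstream of the RefSeq gene start and 24 bp from the start in the promoter table.

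Of the genes taken by symbol alone, Psmc3ip had the strongest summit within 1 kb of all 49, with 88.2 in replicate 1, 99.2 in replicate 2 and 187.6 pooled, at chr11:101095950-101096034, 530 bp upstream. A second summit of 61.7 lay 7 bp from its start. Psme3ip1 had 25.02 pooled, matched in replicate 1 alone at 14.1, and nearer to the start of Rspry1. Psme2b had no optimal summit within 10 kb. The 12 peaks given with coordinates as strongest at their start all have the same interval in the conservative list.

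The 10 genes without an optimal summit mostly had weak entries in the relaxed pooled list, which holds 300000 peaks and background regions. Such an entry lay within 1 kb of 8 of the 10. The share of all genes with such an entry was not counted, so this count is not a result about these genes. Psma3 had 32.8 at 602 bp upstream, which was also in the conservative list. Psmg2 had 22.4, Psmb5 22.3, Psmd14 21.5, Psmc4 19.3 and Psma7 16.2. Psmd6 and Psma8 had 8.75 and 7.41, near the lowest value of that list, 6.92, and Psmb11 and Psme2b had no entry. Absence from the optimal list, at an unknown depth, does not show absence of binding.

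Some start summits lay at promoters shared with another gene. Of the 10 members whose start lies within 1 kb of another gene's start, 8 had a summit within 1 kb, and 25 of the 39 members without such a neighbour had one. The same shares over all genes with and without such a neighbour were not counted, so these counts are not a result about the members. The nearest pairs were Psmc2 with Dnajc2 (11 bp between starts), Psma7 with Ss18l1 (19 bp), Psme3ip1 with Rspry1 (21 bp), Psmd13 with Sirt3 (85 bp) and Psmc5 with Ftsj3 (101 bp), all read in opposite directions. The others were Psma4 with AY074887, Psma2 with Mrpl32, Psmg2 with Cep76, Psme2 with Rnf31 and Psmb3 with Pcgf2, and LOC115486880 lay 929 bp from the start of Psme3ip1, on the same strand. The member start was the nearest gene start for 34 of the 38 summits within 1 kb and for 52 of all 66. A summit between such starts cannot be given to either gene.

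The shares also differed by chromosome. Peaks are denser near genes on chromosomes 11 and 16, which hold 12 members. There, 10 of 12 members (83.3%) had a summit within 1 kb, against 44.7% of all genes on these chromosomes. On the other chromosomes the count was 23 of 37 (62.2%), against 30.4% of all genes there. The median signal of the strongest start summit was 70.0 for members on chromosomes 11 and 16 and 46.7 for the other members. Among all genes it was 49.3 and 40.4 in the same order. The part that peak density on these chromosomes has in the result was not tested.

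Genes that work with the proteasome but lie outside the symbol rule had similar shares. Of 30 such genes, among them shuttle receptors and regulators of proteasome transcription, 25 (83.3%) had a summit within 10 kb and 23 (76.7%) within 1 kb. Their median strongest signal within 10 kb was 42.2. Ubqln4, a ubiquitin shuttle, had 49.98 in replicate 1, 110.2 in replicate 2 and 157.3 pooled at 8316 bp upstream, nearer to Rab25.

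Nfe2l1, the transcription factor that raises proteasome gene expression when the proteasome is inhibited, had 44.6 in replicate 1, 64.7 in replicate 2 and 111.5 pooled at 4330 bp upstream. Uchl5, a deubiquitinase of the cap, had 107.6 pooled at 38 bp, and Nploc4, a cofactor of the segregase Vcp, had 79.7 at 14 bp. Pomp, the maturation factor of the core, Sem1, a small cap subunit, Uba1, the main ubiquitin-activating enzyme, Ubqln2 and Usp14 had no optimal summit within 10 kb.

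Ribosomal protein genes, whose products make up the ribosomes of cytosol and mitochondria, had shares near those of the proteasome genes within 1 kb and above them within 10 kb. Proteasome genes had a summit within 1 kb in 67.3% of cases, cytosolic ribosomal protein genes in 66.3% of 83 and mitochondrial ribosomal protein genes in 70.5% of 78. Within 10 kb the shares were 79.6%, 91.6% and 83.3% in that order. The median strongest signals within 1 kb were 50.9, 46.4 and 48.5.

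**Figure D3:**
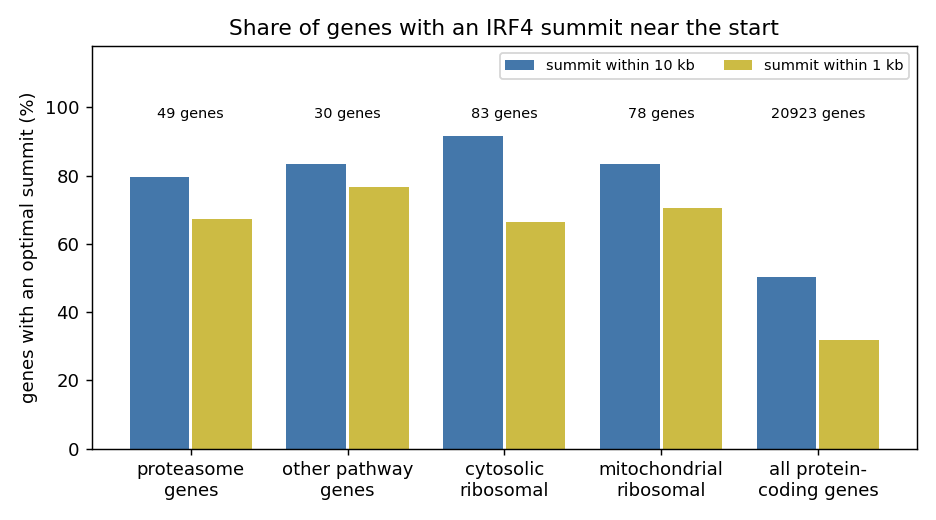
Percent of genes with an optimal summit within 10 kb (blue) and within 1 kb (yellow) of the start, for 49 proteasome genes, 30 other genes of the pathway, 83 cytosolic and 78 mitochondrial ribosomal protein genes, and all 20923 protein-coding genes. The 4 lists stand near each other and above the 50.3% and 31.9% of all genes.

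The replicates differed in level at proteasome genes in the direction seen genome-wide. Of the 66 summits, 55 had a peak within 100 bp in both replicates, with a median signal of 20.02 in replicate 1 and 32.7 in replicate 2. Replicate 2 was higher at 51 of 55 (92.7%), and at 82.8% of all 37635 matched optimal summits. The median log2 ratio of replicate 2 over replicate 1 was 0.70 (SD 0.61, n = 55) at member summits and 0.53 (SD 0.66) at all matched summits. Of the 4 member summits higher in replicate 1, that of Psma5 lay 165 bp and that of Psmc2 4 bp from the start. The signals in replicates 1 and 2 were 10.4 and 6.37 at this Psma5 summit, and 26.8 and 21.9 at this Psmc2 summit. The others were the Psme4 summit and the Psmd12 summit at 8724 bp upstream. Across the 55 summits Spearman's rho between the replicates was 0.66, and 0.72 across all matched summits; the points share their library, so this is a description.

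**Figure D4:**
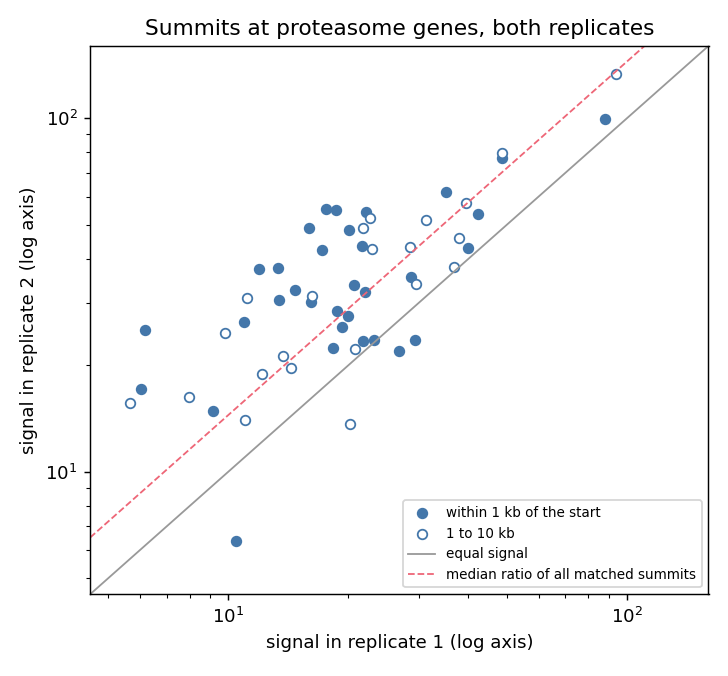
Signal in replicate 1 (x) and replicate 2 (y), both on log axes, at the 55 member summits matched in both replicates. Filled points lie within 1 kb of a start; the grey line is equal signal and the dashed line the median ratio of all matched optimal summits, a log2 ratio of 0.53. Most points lie above the grey line.

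Promoters of proteasome genes held an ETS core more often than promoters at large. The search covered both strands of the RefSeq windows, which were given for 41 of the 49 members and 17274 genes. The ETS core CCGGAAG was in 15 of 41 member windows (36.6%), against 12.1% of all windows. Among genes with a summit within 1 kb, it was in 13 of 29 member windows (44.8%), against 22.9% of the windows of all such genes. Of the 12 member windows without such a summit, 2 held it. An optimal summit lay inside the window of 21 members, and at 8 of these an ETS core was centred within 50 bp of it. Psmd2 had it at 6 bp, Psmc3ip at 11 bp and Psmc1 at 12 bp. Psmd11, Psmc2, Psme4 and Psmd4 had it farther away, at 70, 85, 88 and 161 bp. At 7 of the 21 no motif searched was within 50 bp. The same counts over all genes were not made, so these are not a result about the members. In the mm9 list, Psmc1, Psmd13, Psme3 and Psmg1 had an ETS core within 50 bp of a start summit. Psmd2, Psmc3ip and Psmg3 did not.

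The elements named for IRF factors were rarer. The ISRE, searched as GAAA, a gap of 2 bases and GAAA, was in 5 of 41 member windows (12.2%), against 3.43% of all windows: Psmb3, Psmd4, Psmd9, Psme1 and Psmg4. All of them had an optimal summit within 1 kb, as did 29 of the 41 members with a window. Over all genes, 192 of the 593 windows with an ISRE belonged to a gene with such a summit. Among genes with such a summit, the ISRE was in 5 of 29 member windows (17.2%), against 3.46% of all. With the window cut to 150 bases upstream, 3 of 41 member windows (7.32%) held it, against 1.95% of all windows. The EICE, searched as GGAA, a gap of 2 bases and GAAA, was in the window of Psme1 alone (2.44%), against 2.67% of all windows. In Psme1 the ISRE was centred 10 bp and the EICE 16 bp from the summit. The ISRE was 34 bp from the summit in Psmb3 and 114 bp in Psmd4. In Psmd9 and Psmg4 no summit lay in the window. At the mm9 start summit of Psme1 both elements lay within 50 bp, and at that of Psmb3 no ISRE did.

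Other promoter motifs stood above, near or below their genome-wide shares. The motif of nuclear respiratory factor 1 (NRF1, a factor other than Nfe2l1) was in 17.1% of member windows against 6.74% of all. The YY1 motif AAGATGGC was in 7.32% against 3.23%, which is 3 genes. SP (GGGCGG) was in 56.1% against 46.9%, NFY (CCAAT) in 36.6% against 39.6%, and the E-box CACGTG in 12.2% against 8.01%. The antioxidant element TGACNNNGC, to which NFE2-type factors bind, was in 14.6% against 13.1%, and the AP-1 site TGANTCA in 4.88% against 7.09%. Among genes with a summit within 1 kb, SP was in 58.6% of member windows against 65.0% of all, and NRF1 in 13.8% against 11.9%. The EICE and ISRE can overlap each other, and the EICE and ETS letters share GGAA. Member windows had a median GC content of 57.3% and 19 CpGs, against 56.3% and 14 for all windows.

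**Figure D5:**
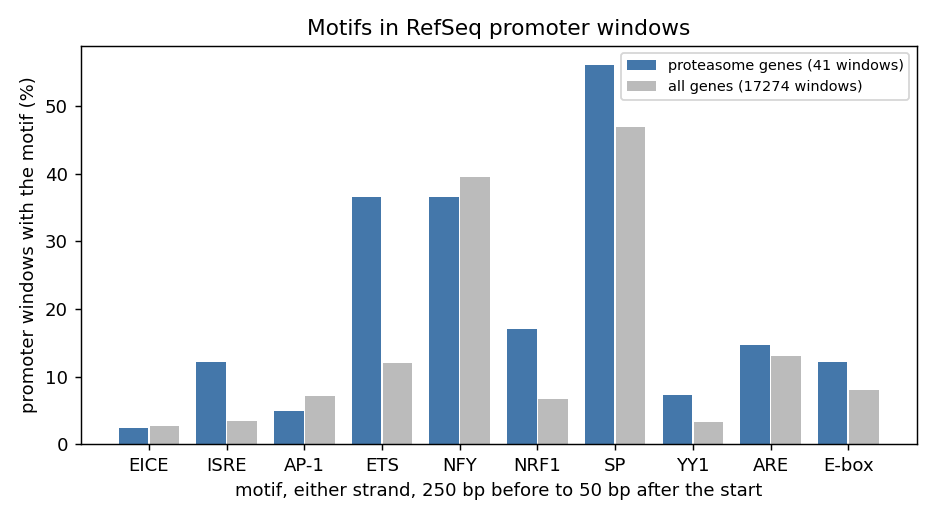
Percent of RefSeq promoter windows with each motif on either strand, for 41 proteasome genes (blue, left bar) and all 17274 genes (grey, right bar). The widest gap is that of the ETS core, 36.6% of member windows against 12.1% of all windows.

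The mm9 list gave the same order of proteasome genes and all genes for summits. The mm9 list has 27671 peaks, and 30 of the 48 members found in GENCODE vM1 (62.5%) had a summit within 10 kb, against 33.4% of genes. Within 50 bp of the summit, the ETS core was found at 6 of 47 member summits (12.8%), against 2.70% of all mm9 summits. The AP-1 site was found at 2 (4.26%) of them, against 16.04%, the EICE at 3 (6.38%), against 8.68%, and the ISRE at 3 (6.38%), against 5.79%. The CTCF core was found at 4 (8.51%), against 3.96%. These 4 include Psmd1, where the match was known before the search. Member summits here lay within 10 kb of a member start, whereas all mm9 summits were taken at any distance from a gene. The motif shares at mm9 summits are therefore from unlike sets. The part that distance from a start has in them was not tested.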

How the data were processed

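The data are peak lists of IRF4 ChIP-seq in 2 replicates of CH12.LX. Per the deposited file descriptions, relaxed lists on mm10 were made for each replicate and the pool, the optimal and conservative lists were made from them by IDR (irreproducible discovery rate), and a separate list was made on mm9. The signal that the authors deposited for each peak was used as given, and the deposited score columns were not used. For the aligner, the caller, its settings and the number of reads, the answer is: not given in the sources used. Depth is therefore unknown and no interval is given.

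Members and lists were chosen with earlier results of these data known. Summits were set against 1 start per RefSeq gene of GRCm38, with strands from the RefSeq promoter table (17274 genes) or GENCODE vM1; 20923 of 21631 genes had one. All members are named. Given in full are the 12 strongest within 1 kb. Of pathway genes, the 5 strongest (of which 1 is not reported here) and those with none are named, and of other genes those within 1 kb of a member start or nearer to a named summit. Replicate signals are those of the nearest peak within 100 bp. Coordinates were not converted between builds. There was no test. Python 3.11.15, numpy 2.4.6, pandas 2.3.3, pysam 0.24.0 and matplotlib 3.10.9 were used, and the counting was tested on simulated data. Alternatives are given below.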

Additional observations from a re-analysis of the deposited data

How the results depend on the processing

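The member count within 10 kb was 39, against 50.3% of all genes. It ranged between 30 (mm9 list and starts, 33.4% of all genes) and 45 (a distance of 25 kb, 63.7% of all genes). With optimal peaks at or above the median signal it was 32, against 31.5% of all genes. Counting only summits nearest to the member it was 34, against 43.6% of all genes. On mm10 the count within 1 kb, 33, ranged between 26 (peaks at or above the median signal, 16.1% of all genes) and 39 (without replicate 2, 32.7%). On mm9 it was 23 of 48, against 17.4% of all genes. The number of member summits, 66, was 43 with peaks at or above the median signal, 38 at a distance of 1 kb and 119 at 25 kb. The pathway count, 25, was 14 with peaks at or above the median signal. ISRE windows numbered 3 in the short window (7.32% of member windows, against 1.95% of all windows). The median strongest signal, 61.1, was between 20.4 and 42.4 when 1 replicate was left out, since the other replicate's own list then gives the value. The causes of the other changes were not tested. Counting any promoter table start, chosen after the data were seen, gave 39 within 10 kb and 35 within 1 kb. The shares of all genes were then 51.6% and 35.0%. No paired analysis was possible because there is 1 group. Depth is unknown, so weak and absent peaks cannot be told apart.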
